A study of Mus musculus with 8 samples.

Results

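Respiratory chain and ATP synthase subunits were compared between cardiac Purkinje cells and ventricular working myocytes, both sorted from adult male mouse hearts. The genes were those whose symbol groups them with complex I (Ndufa, Ndufb, Ndufc, Ndufs and Ndufv), complex II (Sdha to Sdhd), complex III with cytochrome c (Uqcr, Cyc1 and Cycs), complex IV (Cox4 to Cox8) or ATP synthase (Atp5), without the Ndufaf assembly factors. The complex was assigned by symbol alone. Ndufa4 and Ndufa4l2 were thus counted in complex I by name, and Cox7a2l in complex IV, which does not show that their proteins belong there. Of 18193 genes that the array named singly, 84 were chosen in this way, with 36 in complex I, 4 in complex II, 10 in complex III with cytochrome c, 17 in complex IV and 17 in ATP synthase. The rule reads symbols alone and uses no measured value, although it was set with earlier results of these data known. Each gene was read from the brightest of its probe sets, by mean log2 signal over all 8 arrays, and 82 of the 84 had a mean above the limit for testing, a signal of 19.9. Those below it were Cox7b2 and Cox8c, isoforms known from testis.

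The mitochondrial respiratory chain passes electrons from NADH, through complex I, and from succinate, through complex II, by way of complex III and cytochrome c to oxygen at complex IV. The proton gradient built on the way drives ATP synthase. Working heart muscle is among the tissues richest in these complexes, and several complex IV subunits exist as a heart and skeletal muscle isoform beside a broadly expressed one. Purkinje cells are the myocytes of the distal conduction system, known for sparse contractile filaments.

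The 4 Purkinje arrays and the 4 ventricular arrays came from 4 separate hearts, with 1 array of each cell type per heart. Animals of both groups carried Cntn2-EGFP, a-MHC-Cre and floxed-tdTomato, on a mixed CD1, C57/B6 and 129S1 background. The a-MHC promoter drives Cre in cardiac myocytes and the EGFP reports Cntn2, which Purkinje cells express, so that ventricular myocytes carried the same alleles. Hearts were perfused and digested with enzymes, cells were sorted by FACS, and the small RNA amounts were amplified before hybridisation. Each array had been scaled to 1 trimmed mean signal (149.947 to 149.957), while the median signal was 36.1 to 42.9 on Purkinje arrays and 28.2 to 32.3 on ventricular arrays.

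The labels were first checked against marker genes. Of 8 tested Purkinje markers 7 were higher in Purkinje cells, and Irx3 did not pass. Cntn2, the gene that the EGFP reports, was among the 7, and the marker list was chosen with earlier results of these data known. The 7 are thus no independent check of the labels. None of 13 cardiomyocyte markers passed (with the heart as a block in the fit, Mybpc3 alone was lower), while all 13 had a log2 fold change below 0, with a median of -0.11, and their summed signal was 102503 to 108962 on Purkinje arrays and 102000 to 127149 on ventricular arrays. Markers of other cells were present on the Purkinje arrays: the 12 endothelial markers summed to 3168 to 8261 on Purkinje arrays and 1418 to 4639 on ventricular arrays, and 2 were higher (12 with the block). The 10 smooth muscle and pericyte markers summed to 9273 to 14263 on Purkinje arrays and 5881 to 8973 on ventricular arrays, with 2 of 9 tested higher (7 with the block). Much of these sums came from Abcc9 and Myocd, which passed neither fit. Abcc9 averaged 3562 in Purkinje cells and 3619 in ventricular myocytes, and Myocd 1305 and 1161. The 10 fibroblast markers summed to 2718 to 4207 on Purkinje arrays and 1417 to 2752 on ventricular arrays, with 2 higher (6 with the block). Of 10 leukocyte markers, which summed to 312 to 948 on Purkinje arrays and 322 to 430 on ventricular arrays, Ptprc, Cd3e, Cd79a, Cd14, Adgre1 and Cd52 lay below the limit for testing. The 3 Schwann cell markers on the array summed to 64.2 to 139 on Purkinje arrays and 61.0 to 80.9 on ventricular arrays. No marker of these lists was at 0, and in sorted bulk RNA fewer cells of a type and less RNA per cell cannot be told apart.

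Nearly all subunit genes had lower signals in Purkinje cells, by small amounts. The log2 fold change, Purkinje over ventricular, was below 0 in 77 of the 82 tested genes (93.9%, against 44.8% of all 12318 tested genes), and its median was -0.19, or -12.4%, against 0.05 over all tested genes. The number below 0 moved with the processing. It was 65 after quantile normalisation, 68 with the mean of probe sets, 57 in hearts 1 and 2 alone and 80 after median centring. These 4 counts have no share over all tested genes beside them. On the Purkinje array the gene was lower in 4 of 4 hearts for 41 of the 82 (50.0%, against 17.2% of all tested genes) and the reverse held for 1, Ndufa4l2 (1.22%, against 21.0%). The 4 Purkinje arrays all lay below the 4 ventricular arrays for 23 genes (28.0%, against 6.41%) and all above for 0 (against 6.25%).

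With limma and Benjamini-Hochberg adjustment over all tested genes, 2 of the 82 fell in Purkinje cells, Uqcrfs1 and Uqcrc2, both of complex III, and 0 rose. The background was 1.02% of all tested genes lower and 1.94% higher. An unadjusted p under 0.05 was found for 28 of the 82 subunit genes and for 2711 of all 12318 tested genes, in either direction. Because same-numbered arrays came from the same heart, a fit with the heart as a block was made as well, and in it 19 of the 82 were lower (23.2%) and 0 higher, against 7.48% and 9.64% of all tested genes. The 19 were 13 of 36 in complex I, 5 of 10 in complex III with cytochrome c, 1 of 17 in ATP synthase, 0 of 4 in complex II and 0 of 15 in complex IV. No test compared the complexes with each other.

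Most subunit genes were bright, and most other bright genes also had log2 fold changes below 0. Of the 82, 75 had a mean signal above 2000, as did 483 other genes. The median log2 fold change was -0.19 among these 75 and -0.16 among the other 483, and 75 of the 75 lay below 0, against 82.4% of the others. With the heart as a block, 25.3% of the 75 and 26.3% of the other 483 were lower. The share lower in 4 of 4 hearts was 54.7% of the 75 and 46.4% of the other 483, and the share lower without overlap between groups 30.7% and 19.0%. Above a signal of 4000 lay 63 of the subunit genes and 150 other genes. With the block, 11 of those 63 subunit genes and 24 of the other 150 were lower. Of the same subunit genes 49.2% were lower in 4 of 4 hearts and 30.2% without overlap, against 34.0% and 10.7% of the other 150. None of these differences in shares was tested.

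After quantile normalisation, which gives every array the same distribution of signals and moved the median of all tested genes to -0.06, the median of the 82 was -0.05, 0 passed and 7 were lower with the block, against 5.72% of all tested genes. An unadjusted p under 0.05 was then found for 6 of the 82 and for 2245 of all 12318 tested genes. Above a signal of 2000 the median was then -0.05 for the subunit genes and -0.01 for the other genes. By complex, the median was then -0.11 in complex I, -0.04 in complex II, -0.15 in complex III with cytochrome c, -0.0029 in complex IV and -0.04 in ATP synthase. Centring each array on its median instead moved the median of all tested genes to -0.35 and that of the 82 to -0.59, with 74 lower, against 19.4% of all tested genes.

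**Figure D1:**
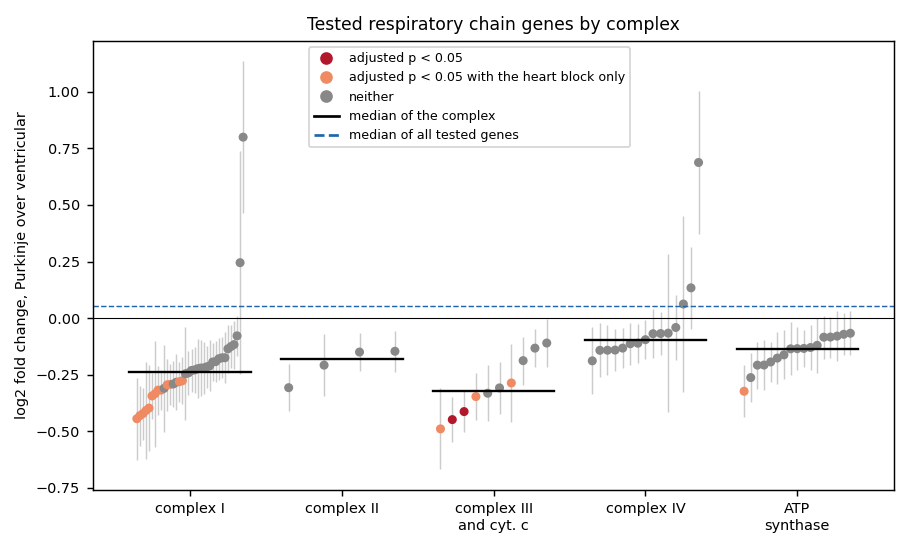
Log2 fold change (Purkinje over ventricular, vertical axis, 4 arrays each) of the 82 tested subunit genes, ordered within each complex; grey bars are standard errors, black lines the median of a complex and the dashed line the median of all tested genes (0.05). Complex III with cytochrome c has the lowest median (-0.32) and complex IV the highest (-0.10). The points well above 0 are Ndufa4l2, placed with complex I by its symbol alone, and Cox4i2 in complex IV.

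Complex I, the NADH dehydrogenase, had a median log2 fold change of -0.24, and 34 of its 36 genes were below 0. Its core subunits carry the iron-sulfur clusters that lead electrons to ubiquinone. Ndufs3, a core subunit of the arm that reaches into the matrix, had signals of 3973, 4164, 3529.5 and 4078 on Purkinje arrays 1 to 4 and 4356, 5142, 5878 and 5827 on ventricular arrays 1 to 4. Every Purkinje array lay below every ventricular array, and the gap was widest in hearts 3 and 4. Its log2 fold change was -0.42 ± 0.12 (SE; adjusted p = 0.067, and 0.016 with the block).

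Ndufs1, which holds several of the iron-sulfur clusters, measured 2345, 2400.3, 3050.5 and 3290.5 on the Purkinje arrays and 2667, 3545, 4464 and 4590.5 on the ventricular arrays. The groups overlapped, since both cell types were higher on hearts 3 and 4, while within every heart the Purkinje array was the lower one. The log2 fold change was -0.44 ± 0.18 (SE; adjusted p = 0.185, and 0.00821 with the block). Ndufs8, a further iron-sulfur core subunit, measured 3136, 2254, 2806 and 3196 on the Purkinje arrays and 3367, 3594, 4071 and 4252 on the ventricular arrays. The groups did not overlap, and Purkinje array 2 was the lowest. Its log2 fold change was -0.43 ± 0.13 (SE), with an adjusted p of 0.0941, and of 0.0147 with the block.

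Read from their brightest probe sets, the other core subunits moved less. Ndufv2, an iron-sulfur subunit of the NADH-binding module, averaged 4097 ± 597 in Purkinje cells and 4991 ± 266 in ventricular myocytes (SD, n = 4 each), and passed only with the block (adjusted p = 0.0381). Ndufv1, which binds NADH and the flavin, averaged 4017 ± 144 in Purkinje cells and 4683 ± 658 in ventricular myocytes and did not pass either fit. Ndufs7 was lower without overlap between groups, at 4165 to 5576 on Purkinje arrays and 5794 to 6345 on ventricular arrays, yet missed the threshold also with the block (adjusted p = 0.0543). In the block fit of all probe sets, dimmer ones of Ndufs7 (-0.42, adjusted p = 0.0218) and Ndufv1 (-0.30, adjusted p = 0.0437) were lower. Another dimmer Ndufv1 probe set did not pass in that fit (-0.21, adjusted p = 0.155).

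Accessory subunits, which surround the core and serve its assembly and stability, made up the rest of the 13 complex I genes lower with the block. They were Ndufs4, Ndufs5, Ndufa2, Ndufa6, Ndufa7, Ndufa9, Ndufb3, Ndufb10 and Ndufab1, the mitochondrial acyl carrier protein. Ndufb10, of the membrane arm, measured 6136, 6720.4, 5907 and 5369.6 on Purkinje arrays and 7200.5, 7503, 7759 and 7538 on ventricular arrays. No array crossed between the groups, the ventricular values were close together, and the log2 fold change was -0.32 ± 0.09 (SE; adjusted p = 0.074, and 0.0231 with the block). Ndufs4, whose loss causes a Leigh-like disease in mice, measured 3577, 3550.5, 3534 and 3779.9 on Purkinje arrays and 4064, 4336, 5178 and 4825 on ventricular arrays. Here the Purkinje arrays were nearly level, and the ventricular arrays of hearts 3 and 4 were the highest. Ndufa1, Ndufa3, Ndufb6, Ndufb8 and Ndufv3 had no overlap between groups either, with log2 fold changes of -0.19 (Ndufa1) to -0.24 (Ndufv3), and did not pass. The other complex I genes below 0 lay between -0.31 (Ndufb2) and -0.08 (Ndufa5).

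Ndufs5 and Ndufa6 showed another pattern. Ndufs5 measured 2823, 2834, 1559 and 1569 on Purkinje arrays and 2975, 3264, 2444 and 2557 on ventricular arrays. Both cell types were lower on hearts 3 and 4, so that Purkinje arrays 1 and 2 lay above ventricular arrays 3 and 4, and only the comparison within hearts put the gene lower in all 4. Its log2 fold change of -0.41 ± 0.21 (SE) had an adjusted p of 0.29, and of 0.0322 with the block. Ndufa6 averaged 1959 ± 552 in Purkinje cells and 2519 ± 339 in ventricular myocytes (SD, n = 4 each), and Ndufa7 averaged 1880.0 ± 610.2 in Purkinje cells and 2313 ± 502 in ventricular myocytes. Both had the same pattern over hearts, with adjusted p = 0.0228 and 0.0388 with the block.

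The 4 complex II genes encode succinate dehydrogenase, which also works in the citrate cycle. Read from the brightest probe set of each, their median log2 fold change was -0.18 and none passed either fit (0 of 4). Sdhb, the iron-sulfur subunit, came nearest: it measured 5137, 4926, 4061 and 4175 on Purkinje arrays and 5195, 5614, 5883 and 5862 on ventricular arrays. The groups did not overlap, although the arrays of heart 1 differed little, and the log2 fold change was -0.31 ± 0.10 (SE; adjusted p = 0.117, and 0.0536 with the block). Sdhd, a membrane anchor, also had no overlap, at 5865 to 5998 on Purkinje arrays and 6129 to 7094 on ventricular arrays. The flavoprotein Sdha averaged 7161 ± 94.8 in Purkinje cells and 7958 ± 822 in ventricular myocytes, and the anchor Sdhc 3940.3 ± 419 in Purkinje cells and 4587 ± 809 in ventricular myocytes, with overlap in both. In the block fit of all probe sets, dimmer ones of Sdhd (-0.33) and Sdhc (-0.31) were lower, with adjusted p = 0.0240 and 0.0413. The further Sdha probe sets above the limit did not pass in that fit.

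Complex III, the cytochrome c reductase, with cytochrome c had the lowest median, -0.32, and all 10 genes were below 0. Uqcrfs1, the Rieske iron-sulfur protein that hands electrons to cytochrome c1, measured 3459.7, 3299, 2962 and 3286 on Purkinje arrays and 4293, 4585, 4909.9 and 3985 on ventricular arrays. No Purkinje array reached a ventricular one. It fell, with a log2 fold change of -0.45 ± 0.10 (SE), or -26.7% (adjusted p = 0.0414, and 0.00866 with the block). Uqcrc2, a core protein facing the matrix, measured 3876, 3998, 3692 and 3737 on Purkinje arrays and 4531, 5145, 5316 and 5423 on ventricular arrays. The Purkinje values were tight and all below the ventricular ones. It also fell, with a log2 fold change of -0.41 ± 0.09 (SE), or -24.9% (adjusted p = 0.0407, and 0.00834 with the block); a second, dimmer probe set of the gene gave -0.30 ± 0.11.

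Both calls lay close to the threshold. Neither held after quantile normalisation (Uqcrfs1 adjusted p = 0.119, Uqcrc2 0.107), nor when Purkinje array 2, 3 or 4 or ventricular array 2, 3 or 4 was left out (adjusted p = 0.0763 to 0.130), and Uqcrc2 did not hold without Purkinje array 1 (adjusted p = 0.0506). Their direction was the same in 4 of 4 hearts and in every alternative run for them.

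Uqcrc1, the partner of Uqcrc2, measured 2499, 2328, 2825 and 3439 on Purkinje arrays and 3014, 3245, 4966 and 4519.8 on ventricular arrays. Purkinje array 4 exceeded ventricular arrays 1 and 2, since both cell types were higher on hearts 3 and 4, and the Purkinje array was lower within each heart. The log2 fold change of -0.49 ± 0.18 (SE) was the lowest of the 82, with an adjusted p of 0.141, and of 0.00732 with the block. Cyc1, which is cytochrome c1, measured 4388, 4784, 3825 and 4572 on Purkinje arrays and 5004, 5303, 6081 and 5949.5 on ventricular arrays, without overlap. It passed with the block (0.0309) and not without it (0.0902).

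Among the small subunits, Uqcr10 was lower with the block (adjusted p = 0.0432), with means of 4321 ± 1048 in Purkinje cells and 5192 ± 753 in ventricular myocytes (SD, n = 4 each). Uqcr11 and Uqcrq had no overlap between groups and missed the threshold, with adjusted p = 0.0617 and 0.0801 with the block. Cycs, the mobile cytochrome c itself, measured 8396, 8086, 6304 and 6463 on Purkinje arrays and 8042, 8105, 7620.1 and 7556 on ventricular arrays. The highest value of all was a Purkinje array, the lowest were those of hearts 3 and 4 in Purkinje cells, and the log2 fold change of -0.11 ± 0.11 (SE) passed neither fit.

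**Figure D2:**
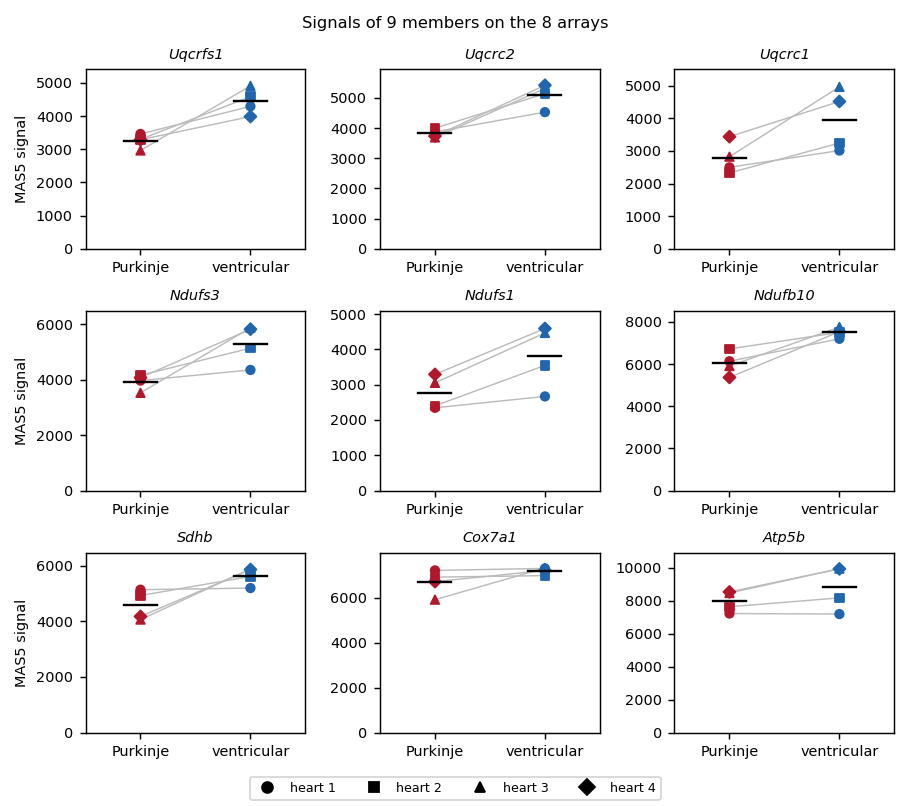
MAS5 signal (vertical axes, from 0) of 9 subunit genes on the 4 Purkinje arrays (left, red) and the 4 ventricular arrays (right, blue); lines join arrays of the same heart, marked by shape, and black bars are group means. Lines run upward to the ventricular side in every heart for Uqcrfs1, Uqcrc2, Uqcrc1, Ndufs3, Ndufs1, Ndufb10, Sdhb and Cox7a1, and Atp5b is nearly level in heart 1.

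Complex IV, cytochrome c oxidase, had the median nearest to 0. Subunit genes differ in brightness, and 25.3% of those above a signal of 2000 were lower with the block, against 17.5% of those above 4000. The part of brightness in the order of the complexes was not tested. In complex IV the median log2 fold change was -0.10, 12 of 15 tested genes were below 0 and 0 passed in either fit. Lower in 4 of 4 hearts was 1, Cox7a1, the heart and skeletal muscle isoform of its subunit. Cox7a1 measured 7225, 6926, 5921 and 6726 on Purkinje arrays and 7315, 6994, 7334 and 7223 on ventricular arrays. Apart from Purkinje array 3 the values of both cell types lay close together, and the log2 fold change was -0.11 ± 0.09 (SE; adjusted p = 0.488). Cox4i1, the broadly expressed form of a regulatory subunit, averaged 7467 ± 496 in Purkinje cells and 8288 ± 1187 in ventricular myocytes (SD, n = 4 each). Cox5a averaged 8052 ± 1373 in Purkinje cells and 8802 ± 559 in ventricular myocytes. The groups overlapped for both, and the difference of the means was smaller than the larger SD. After quantile normalisation Cox5b, Cox6a1, Cox6a2 and Cox7a1 lay above 0, unlike in the values as reported.

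The genes above 0 were few and mostly dim. Cox4i2, an isoform known to respond to oxygen, measured 134.9, 132, 101.3 and 59.7 on Purkinje arrays and 86.0, 42.6, 67.0 and 65.2 on ventricular arrays. Purkinje arrays 1 to 3 were higher than every ventricular array and Purkinje array 4 was lower than 3 of them, and the log2 fold change of 0.69 ± 0.32 (SE) did not pass (adjusted p = 0.232, and 0.121 with the block). Ndufa4l2, a relative of Ndufa4 that hypoxia induces, measured 142, 179, 70.5 and 70.5 on Purkinje arrays and 81.1, 52.3, 51.9 and 62.4 on ventricular arrays. In all 4 hearts the Purkinje value was the higher one, by much more in hearts 1 and 2 than in hearts 3 and 4, where its Purkinje values lay below ventricular array 1. The log2 fold change was 0.80 ± 0.34 (SE; adjusted p = 0.195, and 0.0731 with the block).

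Both genes are also known from pericytes of other mouse tissues. The smooth muscle and pericyte markers stood 0.99, 0.91, 0.19 and 0.27 log2 units from their 8-array mean on Purkinje arrays 1 to 4, and -0.04, -0.53, -0.84 and -0.95 on ventricular arrays 1 to 4, and their part in these values was not tested. The remaining genes above 0 were Cox8a (0.13 ± 0.18), Ndufb4 (0.25 ± 0.49) and Cox6b2 (0.06 ± 0.39, a testis isoform), and among these Ndufb4 and Cox6b2, like Ndufb1 and Cox7c, were read from dim probe sets with mean signals of 27.9 (Ndufb4) to 88.8 (Ndufb1).

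**Figure D3:**
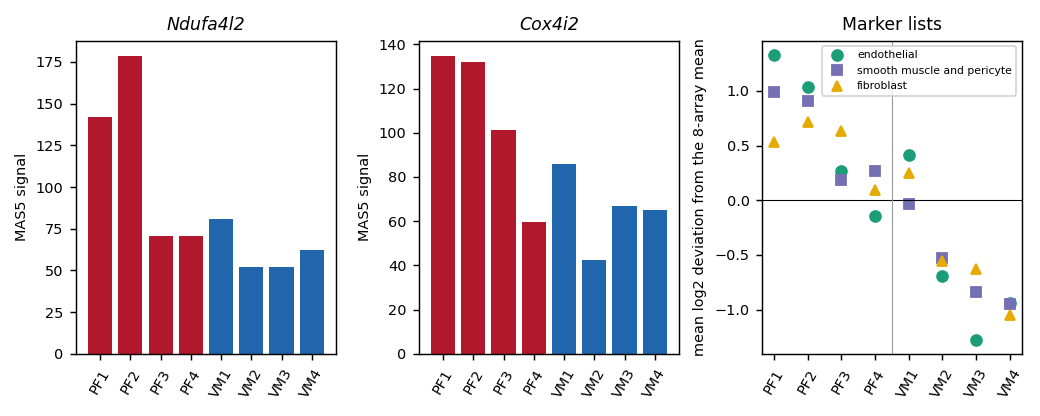
Left and middle, MAS5 signal (from 0) of Ndufa4l2 and Cox4i2 on Purkinje arrays (PF, red) and ventricular arrays (VM, blue). Right, mean log2 deviation from the 8-array mean for 3 marker lists, with each point 1 array; the endothelial and the smooth muscle and pericyte markers stand highest on Purkinje arrays 1 and 2, the fibroblast markers on Purkinje arrays 2 and 3, and on Purkinje arrays 1 and 2 Ndufa4l2 reaches 142 and 179 and Cox4i2 134.9 and 132.

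For 5 pairs of complex IV isoforms the log2 signal difference within each array was compared between the cell types by an exact two-sided permutation test, where 4 arrays against 4 allow no p below 0.0286. The offset within an array also holds the brightness of both probe sets and was not read as a ratio of levels. Cox4i2 minus Cox4i1 was -5.67, -5.90, -6.16 and -7.04 on Purkinje arrays and -6.43, -7.39, -7.13 and -7.15 on ventricular arrays. Purkinje values were higher in 4 of 4 hearts, by little in heart 4, and the difference of 0.83 had an exact p of 0.0571, or 0.286 after adjustment over the 5 pairs (0.125 by exact sign flips over the 4 hearts, the smallest they allow). After quantile normalisation the difference was 0.43, with an adjusted exact permutation p of 0.786.

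Cox8b, the muscle isoform, minus Cox8a was 3.33, 3.24, 3.08 and 2.71 on Purkinje arrays and 3.45, 3.23, 3.29 and 3.69 on ventricular arrays. Most of the difference of -0.32 came from heart 4, with an exact p of 0.143 and 0.357 adjusted, and with the mean over probe sets the difference was -0.59 (adjusted exact p = 0.429). Cox6a2, the muscle isoform, minus Cox6a1 differed by -0.03 (exact p = 0.914), Cox7a1 minus Cox7a2 by -0.02 (exact p = 0.829), and Cox6b2 minus Cox6b1 by 0.20 (exact p = 0.657). Leaving out 1 array or heart at a time gave -0.16 to 0.08 for the Cox6a pair and -0.06 to 0.02 for the Cox7a pair.

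**Figure D4:**
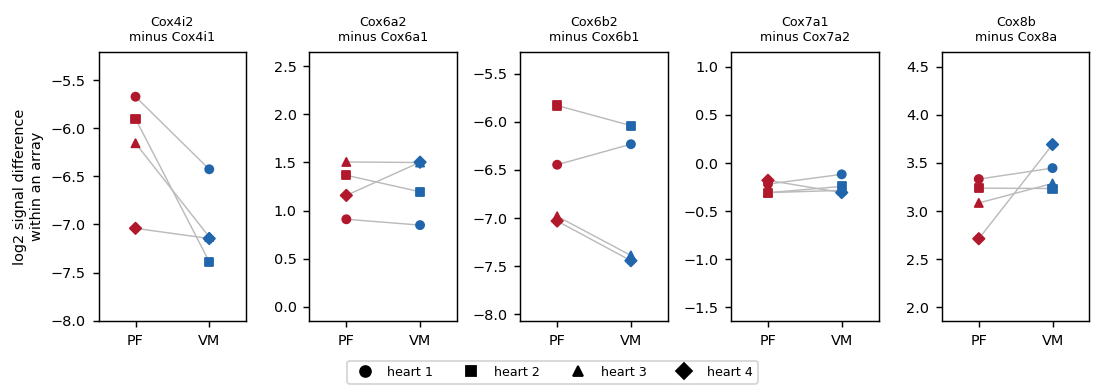
Log2 signal difference between 2 isoforms within each array (vertical axes, all spanning the same range) on Purkinje arrays (PF, red) and ventricular arrays (VM, blue), with lines joining arrays of 1 heart. Cox4i2 minus Cox4i1 is higher in Purkinje cells within all 4 hearts, and Cox7a1 minus Cox7a2 is nearly level.

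ATP synthase had a median log2 fold change of -0.13, with all 17 genes below 0. Atp5d, the delta subunit of the catalytic head's central stalk, measured 5709.8, 6635, 4450.4 and 5476 on Purkinje arrays and 6707, 7028, 6894 and 6961 on ventricular arrays. The groups did not overlap and the ventricular values were nearly level; the log2 fold change of -0.32 ± 0.11 (SE) passed with the block (adjusted p = 0.0372) and not without it (0.132). Atp5j2 and Atp5pb, of the membrane part and the peripheral stalk, had no overlap either and did not pass (adjusted p = 0.142 and 0.131 with the block). In the block fit of all probe sets, dimmer ones of both (mean signals 4806 and 4625) were lower, with adjusted p = 0.0480 and 0.0184. A dim Atp5j2 probe set (29.0) lay above 0. Atp5b, the catalytic subunit, measured 7222, 7632, 8465 and 8533 on Purkinje arrays and 7189, 8171, 9943 and 9931 on ventricular arrays, and Atp5a1, its partner in the head, averaged 10389 ± 373 in Purkinje cells and 10945 ± 1434 in ventricular myocytes. For both, Purkinje arrays were level with or above ventricular arrays in heart 1 and below them in hearts 3 and 4.

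The difference between cell types was largest in heart 3 and next in heart 4 in every complex, which no test compared. The median log2 difference of the 82 genes, Purkinje minus ventricular, was -0.03, -0.09, -0.39 and -0.25 in hearts 1 to 4, while that of all tested genes was -0.0038, 0.07, 0.06 and 0.07. In complex III with cytochrome c it was -0.10, -0.13, -0.59 and -0.39, in complex I -0.10, -0.14, -0.42 and -0.32, and in complex II -0.0021, -0.15, -0.34 and -0.25. In complex IV it was 0.06, 0.05, -0.29 and -0.18, and in ATP synthase 0.0066, 0.0050, -0.36 and -0.22, so that these were below 0 only in hearts 3 and 4.

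Hearts 3 and 4 alone, with 2 arrays of each cell type, gave 60 of the 82 genes lower, against 6.60% of all tested genes. This pair was fitted alone only after the data were seen, so the count is no separate support for a larger difference in these hearts. Hearts 1 and 2 alone gave 0 of the 82 and 0.00% of all tested genes, so that their 0 says nothing of these genes in particular. At an unadjusted p under 0.05 were 10 of the 82 there, against 1544 of all 12318 tested genes. With the block, leaving out heart 1, 2, 3 or 4 gave 29, 0, 3 and 2 of the 82 lower, against 8.78%, 2.25%, 2.48% and 2.74% of all tested genes. The 3' to 5' ratio of the Gapdh control signals, a measure of RNA quality, parted the same hearts, at 1.24 and 1.28 on Purkinje arrays 1 and 2 and 1.64 and 1.72 on Purkinje arrays 3 and 4, against 1.23 and 1.20 on ventricular arrays 1 and 2 and 1.51 on each of ventricular arrays 3 and 4. The same ratio of the actin controls did not part them, at 0.763, 0.672, 0.776 and 0.709 on Purkinje arrays 1 to 4 and 0.789, 0.818, 0.706 and 0.785 on ventricular arrays 1 to 4. The part of RNA quality in the difference was not tested.

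Between the pairs of hearts, 40 of the 82 genes were lower on Purkinje arrays 3 and 4 than on 1 and 2 while higher on the matching ventricular arrays. On hearts 3 and 4, 22 were lower in both cell types, 20 were higher in both, and 0 did the opposite of the first. These counts have no share over all tested genes beside them, and the 40 against 0 restates the larger difference in hearts 3 and 4. The median log2 difference between the pairs was -0.16 on Purkinje and 0.13 on ventricular arrays for the 82. Over all tested genes it was -0.0068 and -0.0163. Genes lower in both included Ndufa7, with a log2 difference of -0.82 in Purkinje cells and -0.54 in ventricular myocytes, and Ndufs5, with -0.85 in Purkinje cells and -0.32 in ventricular myocytes. The dim genes Ndufa4l2, with -1.18 in Purkinje cells and -0.19 in ventricular myocytes, and Cox6b2, with -1.02 in Purkinje cells and -1.11 in ventricular myocytes, were lower in both as well, as were Ndufa6, Ndufb2 and Uqcr10, with -0.72 (Ndufa6) to -0.60 (Uqcr10) in Purkinje cells. Genes higher in both included Uqcrc1, with 0.37 in Purkinje cells and 0.60 in ventricular myocytes, and Ndufs1, with 0.42 in Purkinje cells and 0.56 in ventricular myocytes.

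**Figure D5:**
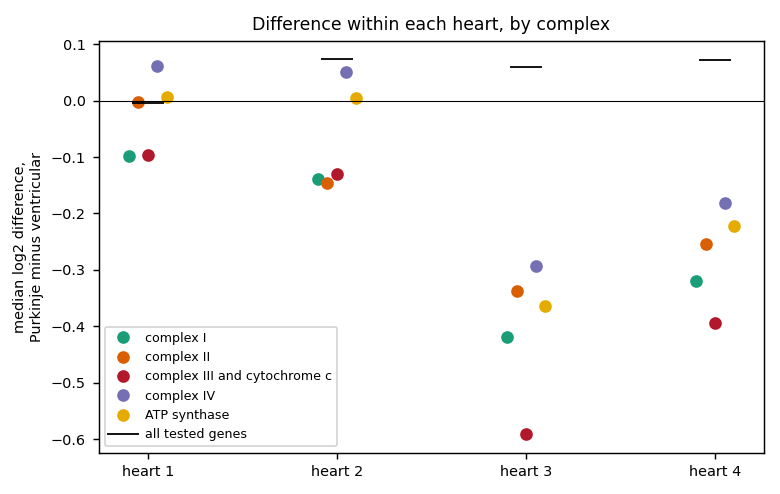
Median log2 difference (Purkinje minus ventricular, vertical axis) of each complex within each of the 4 hearts, with all tested genes as black bars. In hearts 1 and 2 all complexes lie between -0.15 and 0.06, and in hearts 3 and 4 all lie at -0.18 or below.

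Several members were measured by more than 1 probe set. Of 163 probe sets of these genes above the limit, 147 had a log2 fold change below 0, and with the block 41 were lower and 0 higher. These counts stand without the share over all probe sets above the limit, and were not read as a result about these genes. Of 48 genes with several such probe sets, 38 shared 1 sign and 10 did not: Atp5c1, Atp5g1, Atp5j2, Cox5b, Cox6a1, Ndufa12, Ndufs4, Sdha, Uqcr10 and Uqcrq. In most of these the probe set of the opposite sign was dim, such as the Ndufa12 probe set of mean signal 40.1 with 1.01 ± 0.40 beside 4886 with -0.22 ± 0.13. For Ndufs4 the dim probe set of mean signal 37.3 gave 0.24 ± 0.42. Calls with the block depended on the probe set in both directions. Dimmer probe sets of several genes, such as Ndufs7, Ndufv1, Atp5pb, Atp5j2, Sdhc and Sdhd, were lower though the brightest was not. For Uqcrc2 the dimmer probe set did not pass with the block (adjusted p = 0.0671), unlike the brightest. With the mean over a gene's probe sets, 1 of the 82 was lower, against 1.13% of all tested genes, and with the block 11, against 5.31%.

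In the authors' deposited table, 18 of the 84 genes had an unadjusted p under 0.05, all with a ratio below 1 (21.4%, against 14.0% of 45037 probe sets in either direction). Its ratio was 0.732 for Uqcrfs1 and 0.75 for Uqcrc2 in the authors' deposited table, both among the 18. The p-values of the authors' deposited table matched a paired test over the 4 hearts.

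Assembly factors, which build the complexes, mostly did not pass either fit. Of the 40 tested 1 was lower and 0 higher, and 17 were lower with the block, against 1.02% lower, 1.94% higher and 7.48% lower with the block among all tested genes. Their median log2 fold change was -0.44, with 37 below 0, against 0.05 and 44.8% over all tested genes. Bcs1l, which inserts the Rieske protein Uqcrfs1 into complex III, measured 225, 202, 210.2 and 170.5 on Purkinje arrays and 311, 414, 352 and 299 on ventricular arrays. The groups lay well apart, and it fell with a log2 fold change of -0.77 ± 0.17 (SE; adjusted p = 0.0427, and 0.00642 with the block). Lrpprc, which stabilises mitochondrial mRNAs, averaged 898 ± 117 in Purkinje cells and 1457 ± 339 in ventricular myocytes, and Atpaf1, a chaperone of the ATP synthase head, averaged 1127 ± 186 in Purkinje cells and 1610.1 ± 156 in ventricular myocytes. Both passed only with the block (adjusted p = 0.00243 and 0.0048). Sdhaf1, Lyrm7 and Cox18 were above 0 without passing.

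Of 15 regulators of mitochondrial genes, 13 were below 0 with a median of -0.17, 0 passed, and 3 were lower with the block. Among all tested genes 44.8% were below 0, 1.02% passed as lower and 1.94% as higher, and 7.48% were lower with the block. The 3 regulators were Ppargc1a, the coactivator PGC-1alpha, at 1256 ± 215 in Purkinje cells and 1722 ± 137 in ventricular myocytes (adjusted p = 0.0154), Ppara, a receptor for fatty acids, at 800.5 ± 119 in Purkinje cells and 1161 ± 290 in ventricular myocytes (0.012), and Tfam, which packages mitochondrial DNA, at 309 ± 50.3 in Purkinje cells and 462 ± 90.6 in ventricular myocytes (0.0334). For Ppargc1a no Purkinje array reached a ventricular one. Nrf1 and Esrra, factors that bind promoters of respiratory genes, had log2 fold changes of 0.24 ± 0.31 and -0.15 ± 0.22.

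Promoters were taken from RefSeq on GRCm38.p6 for 68 of the 84 genes (73 windows, from 250 bases before to 50 after a start) and searched on both strands for 4 short motifs. GCATGCGC, the core of the NRF1 site, lay in 13.7% of the windows of subunit genes and 2.71% of all 32851 windows. CCGGAAG, an ETS site as bound by Gabpa, lay in 23.3% of the windows of subunit genes and 8.86% of all windows. AAGATGG, the YY1 core, lay in 13.7% of the windows of subunit genes and 6.34% of all windows, and AAGGTCA, the single-receptor site of estrogen-related receptors, in 11.0% of the windows of subunit genes and 4.72% of all windows. No motif holds another, and 47.9% of the windows of subunit genes held any of them, against 20.7% of all windows. Of the 17 windows of genes lower with the block, 11.8% held each of the first 3 motifs and 5.88% the last.

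The 250 bases before the start are shown for 3 genes lower with the block, all read on the minus strand, with motif matches in capitals. Without the block only Uqcrfs1 of these passed. Ndufs3 and Ndufa6 were picked among windows with a match and Uqcrfs1 without regard to one, so the 3 do not show how often a motif occurs. Ndufs3 (chr2:90904722-90904971) has an ETS match whose first base lies 27 bases before the start, Ndufa6 (chr15:82354292-82354541) an NRF1 core at 83 bases, and Uqcrfs1 (chr13:30545317-30545566) none of the 4 motifs in these bases.
Ndufs3: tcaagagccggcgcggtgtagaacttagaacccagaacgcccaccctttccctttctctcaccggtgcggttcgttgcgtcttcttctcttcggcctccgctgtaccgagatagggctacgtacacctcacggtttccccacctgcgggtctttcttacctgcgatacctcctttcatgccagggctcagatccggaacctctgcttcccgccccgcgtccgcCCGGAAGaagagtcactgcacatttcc
Ndufa6: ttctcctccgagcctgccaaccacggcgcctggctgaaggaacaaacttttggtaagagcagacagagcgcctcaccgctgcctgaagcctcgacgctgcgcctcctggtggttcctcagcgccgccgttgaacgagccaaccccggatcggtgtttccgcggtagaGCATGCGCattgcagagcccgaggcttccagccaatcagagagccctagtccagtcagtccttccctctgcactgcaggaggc
Uqcrfs1: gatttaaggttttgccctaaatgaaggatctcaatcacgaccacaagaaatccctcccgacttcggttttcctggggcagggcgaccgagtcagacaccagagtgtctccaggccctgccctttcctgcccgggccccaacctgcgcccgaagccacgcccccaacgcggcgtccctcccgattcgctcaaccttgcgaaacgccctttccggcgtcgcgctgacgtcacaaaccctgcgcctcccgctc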

How the data were processed

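RNA of the sorted cells was isolated (Arcturus PicoPure) and turned into amplified cDNA (Nugen Ovation Pico), per the labels' protocols. The files hold linear intensity values that the authors deposited; MAS5 is named, without a version, in the submitters' processing notes. For each probe set the authors also deposited a ratio of means and a p-value that is not adjusted and that equals a paired test over hearts, two-sided, within 5e-10.

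Signals were used as log2 values as they stood, 10 zeros being set to 0.1. Names came from the platform annotation, in which 34958 of 45101 probe sets have 1 gene symbol; 10 that name a subunit gene among several genes were not used. The limit for testing was the 40th percentile of the mean log2 signals of the probe sets (4.31), which 12318 genes passed. The fit used limma 3.58.1 under R 4.3.3, by lmFit and then eBayes with its trend option, and Benjamini-Hochberg adjustment at 0.05. It had no block; a fit with the heart as a block stands beside it, since it moved counts of calls by over 1.5 times. Same-numbered arrays come from the same heart, and their deviations from the group means correlated at 0.38, 0.23, 0.27 and 0.27. With the ventricular array of the other heart of its pair (1 and 2, or 3 and 4), Purkinje arrays 1 to 4 correlated at 0.09, 0.20, 0.21 and 0.225. Across the 2 pairs the correlations were -0.30 to -0.14. The values thus part hearts 1 and 2 from hearts 3 and 4 more clearly than they part single hearts. The test was checked on simulated data.

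The members and lists (assembly factors, regulators and cell type markers) were chosen with earlier results of these data known. Genes named with values are those past the threshold in either fit, the 3 largest changes of a complex, core subunits, isoform pairs, genes whose groups do not overlap and genes whose probe sets differ in sign. Promoter windows come from RefSeq. Precision is limited by the 4 arrays of each group. Alternatives were the heart block, quantile normalization, median centring, other filters, the mean of probe sets, 16 added before log2, no variance trend, another membership, and each array or heart left out; the block in combination with these and each pair of hearts alone were added after seeing the data.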

Additional observations from a re-analysis of the deposited data

Results flagged for a closer look

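Of 118 groups of 4 arrays (54 named genes and the medians of 5 complexes in each cell type, on the log2 scale), 4 held an array whose gap to the nearest of the others, divided by the group's range, exceeded Dixon's critical value of 0.829; chance alone gives about 1 in 20. Atp5a1 was at 9833.9 on Purkinje array 3, against 10512.6 to 10616 on the other Purkinje arrays, and Cox6b1 at 6145 on Purkinje array 3, against 7272 to 7465 on the others. Cox6a2 was at 7451 on Purkinje array 2, against 6755 to 6868 on the other Purkinje arrays. Ndufb3 was at 4019 on ventricular array 1, against 4346 to 4398 on the other ventricular arrays.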

How the results depend on the processing

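With the heart block, the counts were 1187 genes higher, 921 lower and 19 subunit genes lower, against 239, 126 and 2 without it; Uqcrfs1 and Uqcrc2 were among the 19. After quantile normalization they were 120, 39 and 0, and 821, 704 and 7 with the block. After median centring 2385 genes and 74 subunit genes were lower (688 higher, 3820 lower and 76 subunit genes with the block), and the medians of complexes I to IV and ATP synthase were -0.64, -0.58, -0.72, -0.50 and -0.54 with and without the block. Of the genes called, 65.5% were higher as reported, 75.5% after quantile normalization and 8.52% after centring. With no filter on low signals 73 genes and 0 subunit genes were lower, with the mean of probe sets 1 subunit gene (997 higher, 654 lower and 11 with the block), and with no variance trend 117 genes were higher, 9 lower and 0 subunit genes. With the block and 16 added before log2 the counts were 1265, 970 and 20. Hearts 1 and 2 alone gave 3, 0 and 0, and hearts 3 and 4 alone 766, 813 and 60.

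Leaving out an array or a heart gave 6 to 647 genes higher, 0 to 310 lower and 0 to 7 subunit genes lower without the block, and 534 to 1334, 277 to 1081 and 0 to 29 with it. The medians of complexes I, II, III, IV and ATP synthase kept their sign, at -0.30 to -0.19, -0.26 to -0.13, -0.40 to -0.23, -0.15 to -0.034 and -0.19 to -0.08. Differences of isoform pairs, named by the first isoform, ranged from 0.61 to 1.11 for Cox4i2, -0.16 to 0.082 for Cox6a2, -0.044 to 0.45 for Cox6b2, -0.063 to 0.024 for Cox7a1 and -0.43 to -0.10 for Cox8b; that of Cox6b2 was -0.21 after quantile normalization, and that of Cox7a1 0.015 there and 0.011 with the mean of probe sets.

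Small log2 fold changes turned sign. After quantile normalization Cox5b was at 0.033, Cox6a1 0.11, Cox6a2 0.076, Cox6b2 -0.23, Cox7a1 0.012 and Cycs 0.0068, with or without the block, and after centring Cox6b2 was at -0.34 and Cox8a at -0.27, again with or without it. With the mean of probe sets Atp5c1 was at 0.052, Atp5j2 0.012, Cox5b 0.032, Cox6a1 0.014, Ndufa12 0.086, Sdha 0.13 and Uqcrq 0.077, with or without the block. In hearts 1 and 2 alone Atp5a1 was at 0.12, Cox4i1 0.021, Cox5a 0.0071, Cox5b 0.0755, Cox6a2 0.09, Cox6b1 0.018, Cox7a2 0.067, Cox8b 0.014 and Cycs 0.029. With an array or heart left out, Cox6b2 ranged from -0.21 to 0.27, Cox6a1 from -0.14 to 0.064, Cox8a from -0.066 to 0.29, Cox6a2 from -0.13 to 0.0051 and Atp5a1 from -0.14 to 0.0016. Of 1620 values of named genes under alternatives, 1315 kept direction and side of the threshold, 219 gained a call, 32 lost one and 54 turned; the causes were not tested.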
